A study of Homo sapiens with 24 samples.

Results

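The mitochondrial genome of HEL cells was followed through its 37 genes, taken as every gene in the count table whose symbol begins with MT-. By their annotated biotype they are 2 ribosomal RNA (rRNA) genes, 13 protein-coding genes (mRNAs) and 22 transfer RNA (tRNA) genes, out of 34213 genes in all. Counts of mRNAs here are counts of genes, so overlapping genes count separately even where they share an RNA. HEL is an established erythroleukaemia cell line that carries an activating JAK2 mutation. The cells were treated for 4 h or 48 h with DMSO, the solvent, or with 500 nM of ruxolitinib, fedratinib, momelotinib, pacritinib or itacitinib, which are inhibitors of JAK kinases. Each of the 12 combinations was sequenced in 2 libraries, so every group value rests on n = 2. The labels do not say whether duplicates were separate cultures, so the spread behind every p-value is that of these libraries and may be technical.

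Human mitochondrial DNA is a small circle that is read from both strands as long transcripts. tRNAs lie between most of the rRNA and mRNA segments, and cutting them out releases the flanking RNAs. The mRNAs encode membrane subunits of respiratory chain complexes I, III and IV and of ATP synthase, also called complex V. The rRNAs form the core of the mitochondrial ribosome. Most of the mRNAs carry short poly(A) tails, the rRNAs shorter ones and mature tRNAs none. The way a library selects RNA thus bears on how much of each class it captures. How RNA was selected, for example by poly(A) tail or by removing rRNA, is not given in the sources used here. Whether reads were counted by strand is not given either.

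In GENCODE 29, the 2 rRNA genes MT-RNR1 (chrM:648-1601) and MT-RNR2 (chrM:1671-3229) lie on the plus strand, and 28 of the 37 genes are on that strand. MT-ND6 and MT-TP are among the 9 on the other strand. Several members overlap or have near copies, and the sequences that matter for reading their counts follow, from GENCODE 29 transcripts on GRCh38, each 5′ to 3′. MT-ATP8 ends inside MT-ATP6, and capitals mark the 46 bases that both genes share (chrM:8527-8572).
MT-ATP8: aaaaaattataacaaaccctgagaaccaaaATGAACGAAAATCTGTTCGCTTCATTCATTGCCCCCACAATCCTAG
MT-ATP6: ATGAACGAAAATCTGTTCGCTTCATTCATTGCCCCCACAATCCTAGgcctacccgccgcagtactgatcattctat
MT-ND4L and MT-ND4 share 7 bases in the same way (chrM:10760-10766), again in capitals.
MT-ND4L: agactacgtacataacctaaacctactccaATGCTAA
MT-ND4: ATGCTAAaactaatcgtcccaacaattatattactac
MT-TP (chrM:15956-16023, minus strand), the tRNA for proline, held nearly all tRNA counts, whereas its neighbour MT-TT (chrM:15888-15953, plus strand), the tRNA for threonine, held almost none.
MT-TP: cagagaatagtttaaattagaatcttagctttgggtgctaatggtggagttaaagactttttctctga
MT-TT: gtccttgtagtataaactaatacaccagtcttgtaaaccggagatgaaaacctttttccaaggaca
MT-RNR2 has copies in the nuclear genome. The copy MTRNR2L12 matches it at 998 of 1049 aligned positions (95.1%), and its coding part of 72 bases (chr3:96617202-96617273, minus strand) differs from the matching stretch of MT-RNR2 (chrM:2633-2704) at the 2 bases in capitals.
MT-RNR2: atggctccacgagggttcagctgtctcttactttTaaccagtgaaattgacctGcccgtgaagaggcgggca
MTRNR2L12: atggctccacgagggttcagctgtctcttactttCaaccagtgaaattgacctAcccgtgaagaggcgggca
Reads from such shared stretches can be given to either gene, so the values of overlapping members and of MT-RNR2 carry that uncertainty.

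Total counts were 32153866 to 56618281 per library. Levels are given as CPM, the usual depth-normalised counts, after TMM scaling for library composition. All 10 erythroid and megakaryocyte markers checked were present in every library (HBG2, a fetal globin, at 1720 to 2960 CPM), and of 10 markers of other blood lineages 9 stayed under 0.5 CPM in every library while CD79A, a B-cell receptor component, was at 3.26 to 7.84 CPM. Of the 37 members, 16 passed the filter on low counts and were tested with edgeR among 16076 genes: both rRNAs, all 13 mRNAs and MT-TP. The other 21 tRNAs together held 11 to 45 counts per library, so no change in them was detectable at this depth. MT-TP held 92.9% to 97.7% of all tRNA counts.

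The 13 mRNAs took 1.72% to 3.31% of all counts in a library, and the rRNAs 0.00716% to 0.128%. The lowest rRNA share, in replicate 2 of DMSO at 4 h, had a 95% Wilson interval of 0.00691% to 0.00741%, and such intervals cover counting error only. Per kilobase of gene, MT-CO2, a catalytic subunit of complex IV, was highest with a median of 4584 CPM per kilobase over the 24 libraries. MT-ATP6, the proton channel subunit of ATP synthase, followed with 3371, and this order held in 24 of 24 libraries. MT-CO1, the other catalytic subunit of complex IV, and MT-CO3 could not be separated, with medians of 2900 and 2901 CPM per kilobase and MT-CO1 above MT-CO3 in 10 of 24 libraries.

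Subunits of complex I filled most of the lower ranks. MT-ND4 had a median of 2259 CPM per kilobase and MT-ND1 of 1909, each above the next gene in 24 of 24 libraries. MT-CYB, the cytochrome b of complex III, MT-ND3, MT-ND5 and MT-ND2 lay close together at medians of 1467, 1451, 1350 and 1324 CPM per kilobase, and neighbours among them kept their order in no more than 15 of 24 libraries. MT-ND4L (1068) and MT-ND6 (1006) kept theirs in 15 of 24. MT-ATP8, the small accessory subunit of ATP synthase, was lowest of the mRNAs at 611 CPM per kilobase. The rRNAs lay below every mRNA and below MT-TP (240), with medians of 195 CPM per kilobase for MT-RNR2 and 171 for MT-RNR1. These are levels after an RNA selection that is not given, so the order of the classes need not be that in the cells.

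**Figure D1:**
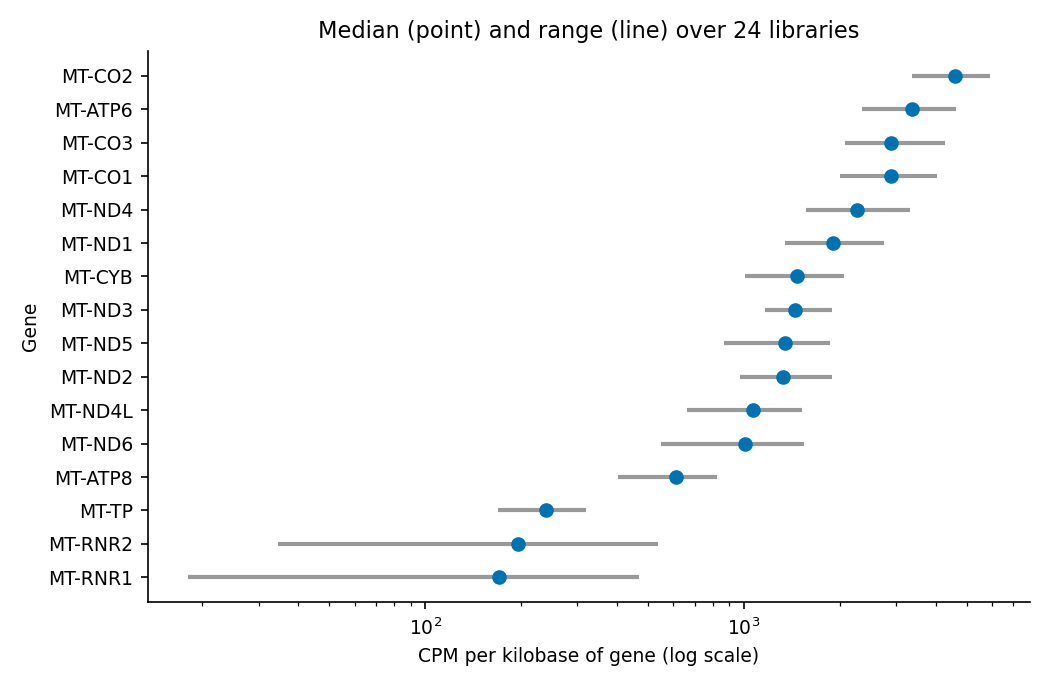
Level of each of the 16 tested mitochondrial genes in CPM per kilobase of gene, on a log scale, with the median (point) and the range (line) over 24 libraries. The mRNA medians run from 611 for MT-ATP8 to 4584 for MT-CO2, and the lines of MT-RNR1 and MT-RNR2 are the longest.

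The classes differed in how far they varied between libraries. The summed rRNA level spanned a factor of 18.2 from the lowest to the highest library, and the summed mRNA level a factor of 1.95. Among the mRNAs the factor was largest for MT-ND6, the complex I subunit encoded on the other strand, at 2.82, and smallest for MT-ND3 at 1.62. MT-RNR1 varied 26.1-fold and MT-RNR2 15.7-fold. Within the rRNA sum MT-RNR1 took 24.3% to 38.7%.

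At 4 h the rRNAs made 9 of the 11 calls among the members. Both rRNAs rose with ruxolitinib, fedratinib, momelotinib and itacitinib, by 2.60-fold to 5.84-fold. Pacritinib stood apart, with a call for MT-RNR1 alone. The other 2 calls were MT-ATP8, the 1 mRNA called over the 5 inhibitors, and MT-TP, both with ruxolitinib. All of these comparisons share the 2 DMSO libraries of 4 h, so their results are not independent of each other.

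The small-subunit rRNA MT-RNR1 was at 56.9 and 17.2 CPM with DMSO. It was at 219 and 201 CPM with ruxolitinib, 186 and 103 with fedratinib, 131 and 105 with momelotinib, 109 and 159 with itacitinib, and 50.5 and 76.2 with pacritinib. The DMSO and pacritinib libraries overlapped, and every library of the other inhibitors was above both DMSO libraries. The large-subunit rRNA MT-RNR2 was at 124 and 53.6 CPM with DMSO, and at 394 and 411 with ruxolitinib. Fedratinib gave 320 and 201 CPM, momelotinib 290 and 217, pacritinib 96.0 and 123, and itacitinib 180 and 277. As for MT-RNR1, ruxolitinib was highest and the pacritinib libraries overlapped those of DMSO, here lying within their range.

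On the log2 scale MT-RNR1 rose by 2.55 (SE 0.30, adjusted p = 2.4e-07) with ruxolitinib by edgeR's quasi-likelihood test with Benjamini-Hochberg adjustment over all tested genes. MT-RNR2 rose by 2.20 (SE 0.24, adjusted p = 8.34e-08). These were 2 of 4 calls among the 16 members with ruxolitinib, against 8.47% of all tested genes called. With fedratinib the 2 rRNAs were the sole calls, at 2.00 (SE 0.30, adjusted p = 0.000233) and 1.57 (SE 0.24, adjusted p = 0.000372), where 1.59% of all genes were called. Each of these 4 changes was larger than the spread between replicates.

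With momelotinib the rRNAs were again the sole calls, at 1.71 for MT-RNR1 (SE 0.30, adjusted p = 0.000236) and 1.53 for MT-RNR2 (SE 0.24, adjusted p = 6.69e-05), against 6% of all genes. Itacitinib gave 1.90 (SE 0.30, adjusted p = 0.000803) and 1.38 (SE 0.24, adjusted p = 0.00208), the 2 calls among the members, where 0.778% of all genes were called. The itacitinib calls rested on single libraries: the count was 0 without replicate 2 of DMSO at 4 h, the library with the lowest rRNA, and 0 without replicate 2 of itacitinib. With pacritinib, which called 30.6% of all genes, MT-RNR1 was called at 0.82 (SE 0.30, adjusted p = 0.0394) although its libraries overlapped those of DMSO, and MT-RNR2 was not (0.32, SE 0.24, adjusted p = 0.346). The pacritinib count was 0 without replicate 2 of DMSO, 0 without its own replicate 2, and 9 without replicate 1 of DMSO.

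**Figure D2:**
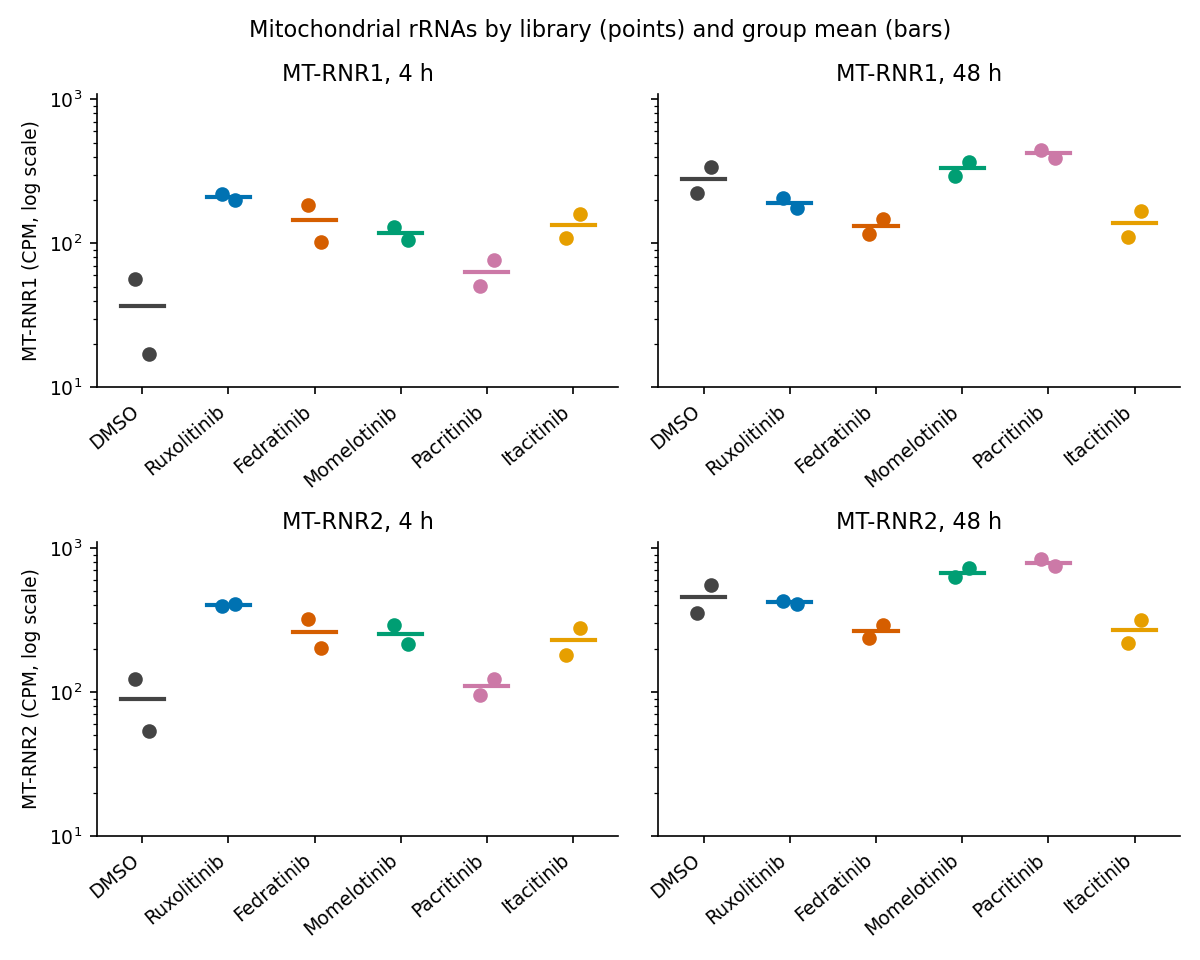
Levels of MT-RNR1 (top) and MT-RNR2 (bottom) in CPM on a log scale at 4 h (left) and 48 h (right), with each of the 2 libraries per group as a point and the group mean as a bar. At 4 h the DMSO libraries are at 56.9 and 17.2 CPM for MT-RNR1 and those of ruxolitinib at 219 and 201.

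Direct comparison of the inhibitors at 4 h, over 10 pairs, gave 15 calls among 160 gene-by-pair tests of members, where 11.9% of all such tests were called. rRNAs made 9 of the 15, and 8 of those 9 had pacritinib on the lower side. MT-RNR2 was higher with ruxolitinib than with pacritinib by 1.88 on the log2 scale (SE 0.24, adjusted p = 5.1e-07), and MT-RNR1 by 1.73 (SE 0.28, adjusted p = 2.33e-05). Pacritinib also had less of both rRNAs than fedratinib, momelotinib and itacitinib, by 0.90 to 1.25 on the log2 scale. The remaining rRNA call was MT-RNR2, higher with ruxolitinib than with itacitinib by 0.82 (SE 0.23, adjusted p = 0.0292). The count of 15 became 25 without replicate 1 of fedratinib.

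The mRNAs at 4 h were level with DMSO within a wide spread. Their sum was 24773 and 17000 CPM with DMSO, 23500 and 23006 with ruxolitinib, 23756 and 17357 with fedratinib, and 24860 and 18729 with momelotinib. With pacritinib it was 22782 and 21963 CPM, and with itacitinib 18647 and 24423. In 4 groups, DMSO among them, 1 library was at 17000 to 18729 CPM and the other at 23756 to 24860. All 13 mRNAs shared that split in DMSO. The lower library was replicate 2 with DMSO, fedratinib and momelotinib, and replicate 1 with itacitinib. Median log2 fold changes over the 13 mRNAs were 0.18 with ruxolitinib, -0.03 with fedratinib, 0.10 with momelotinib and pacritinib and 0.04 with itacitinib, beside medians between -0.0042 and 0.0066 over all tested genes.

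MT-ATP8 was at 120 and 95 CPM with DMSO and at 144 and 156 with ruxolitinib at 4 h. It rose by 0.49 on the log2 scale (SE 0.15, adjusted p = 0.0382), whereas MT-ATP6, which shares its last bases, was at 0.19 and was not called. The difference between these overlapping genes was not tested. MT-TP was at 14.9 and 13.6 CPM with DMSO and 21.2 and 18.6 with ruxolitinib, and rose by 0.48 (SE 0.11, adjusted p = 0.00507). The ruxolitinib count of 4 fell to 2, the rRNAs, without replicate 2 of DMSO or replicate 1 of ruxolitinib, and was 10 without replicate 1 of DMSO. The momelotinib count of 2 was 4 without that same DMSO library. In the pairs at 4 h, ruxolitinib was higher than pacritinib and itacitinib for both MT-ATP8 and MT-TP, and MT-ND3 was higher with ruxolitinib (by 0.33) and pacritinib (by 0.23) than with itacitinib.

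Between 4 h and 48 h in DMSO the rRNAs rose and no mRNA was called. The latter does not show that the mRNAs stayed level, since their sums with DMSO at 4 h lay apart at 24773 and 17000 CPM. MT-RNR1 went from 56.9 and 17.2 CPM to 223 and 338, a rise of 2.96 on the log2 scale (SE 0.30, adjusted p = 3.34e-08). MT-RNR2 went from 124 and 53.6 CPM to 353 and 554, a rise of 2.37 (SE 0.25, adjusted p = 4.91e-08). These were the 2 calls among the members, against 8.16% of all genes, and 4 members were called without replicate 1 of DMSO at 4 h. The mRNA sum was 20793 and 21536 CPM at 48 h, inside the range of the DMSO libraries at 4 h, with a median log2 fold change of -0.02. The level reached by the rRNAs with DMSO at 48 h was close to that already seen with ruxolitinib at 4 h, a summed 734 CPM ± 223 (SD, n = 2) beside 613 ± 0.424.

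At 48 h most of the calls against DMSO were mRNAs. All 13 mRNAs rose with ruxolitinib and all 13 with pacritinib, 10 of 13 rose with fedratinib, and 0 were called with momelotinib or itacitinib. Both rRNAs fell with fedratinib, MT-RNR2 rose with pacritinib, and MT-TP rose with both. In both libraries of all 5 inhibitors, all 13 mRNAs were above both DMSO libraries. The share of all tested genes with that pattern was 31.5% with ruxolitinib, 24.9% with fedratinib, 24% with momelotinib, 28.1% with pacritinib and 20.8% with itacitinib. The 5 comparisons share the 2 DMSO libraries of 48 h, and the mRNAs are cut from long shared transcripts. Neither the comparisons nor the 13 mRNAs are thus independent results, and counts of called mRNAs are not counts of separate observations. In bulk samples, fewer cells of a type and less RNA per cell cannot be told apart.

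The mRNA sum at 48 h was 20793 and 21536 CPM with DMSO. It was 28469 and 27204 with ruxolitinib, 27216 and 29611 with fedratinib, 25145 and 23319 with momelotinib, 27493 and 31681 with itacitinib, and 33201 and 31501 with pacritinib. All 10 inhibitor libraries were above both DMSO libraries, with momelotinib lowest and pacritinib highest by group mean. As shares of all counts, the mean was 2.16% ± 0.0601 with DMSO (SD, n = 2) and 3.24% ± 0.0926 with pacritinib. Group means were above DMSO by 31.5% with ruxolitinib, 34.3% with fedratinib, 14.5% with momelotinib, 52.9% with pacritinib and 39.8% with itacitinib.

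**Figure D3:**
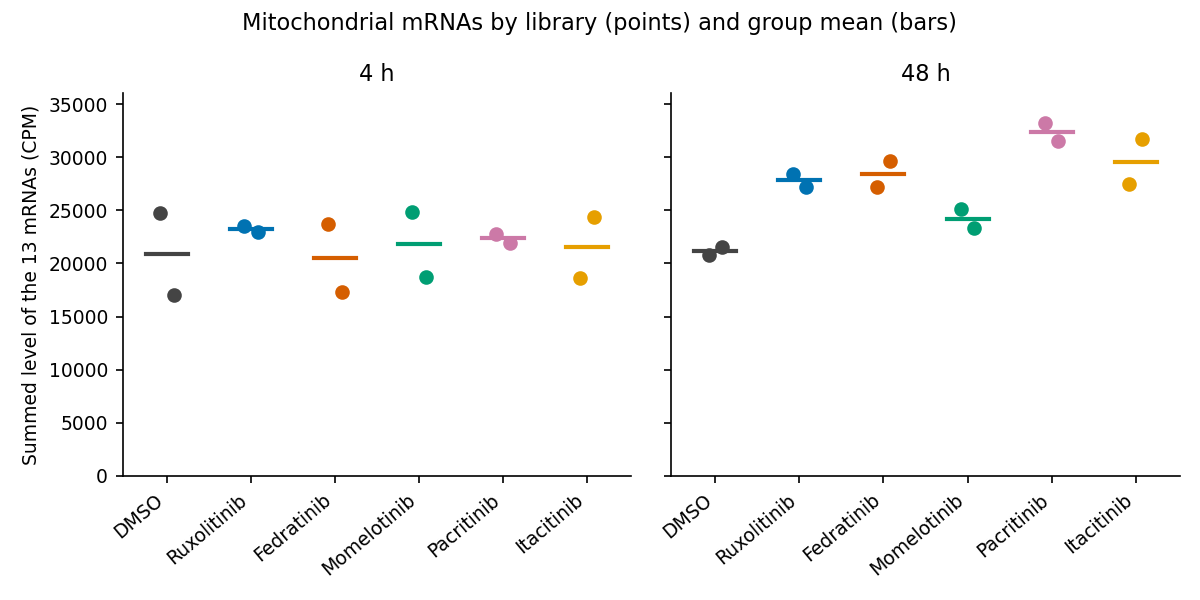
Summed level of the 13 mitochondrial mRNAs in CPM at 4 h (left) and 48 h (right), with each of the 2 libraries per group as a point and the group mean as a bar. At 48 h the DMSO libraries are at 20793 and 21536 CPM and the 10 inhibitor libraries lie between 23319 and 33201.

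For complex I, MT-ND1 at 48 h was at 1505 and 1557 CPM with DMSO and at 2636 and 2554 with pacritinib. It was at 2052 and 2004 CPM with ruxolitinib, 2101 and 2242 with fedratinib, 1845 and 1740 with momelotinib, and 1980 and 2239 with itacitinib. MT-ND1, a subunit at the quinone site, had the highest fold change with pacritinib, 0.76 on the log2 scale (SE 0.13, adjusted p = 8.44e-05), and rose by 0.41 with ruxolitinib (SE 0.13, adjusted p = 0.0204). MT-ND6 was at 430 and 497 CPM with DMSO, 693 and 676 with ruxolitinib, 665 and 812 with fedratinib, 598 and 535 with momelotinib, 678 and 797 with itacitinib, and 660 and 730 with pacritinib. It rose by 0.56 with ruxolitinib (SE 0.16, adjusted p = 0.0103) and by 0.67 with fedratinib (SE 0.16, adjusted p = 0.00925).

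All 7 complex I mRNAs were called with ruxolitinib and pacritinib and 6 of 7 with fedratinib, the exception being MT-ND5, at 0.41. MT-ND4L had the highest fold change of the mRNAs with fedratinib, from 268 and 257 CPM with DMSO to 431 and 438, a rise of 0.73 (SE 0.14, adjusted p = 0.00137). MT-ND3 was the least changed of the 7 in all 5 inhibitors. It was at 437 and 453 CPM with DMSO, 634 and 654 with pacritinib, and 541 and 503 with ruxolitinib. MT-ND3 rose by 0.53 with pacritinib (adjusted p = 1.99e-05) and by 0.23 with ruxolitinib (adjusted p = 0.0387).

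For complex III, MT-CYB at 48 h was at 1477 and 1515 CPM with DMSO. It was at 2070 and 1903 with ruxolitinib, 2041 and 2216 with fedratinib, 1816 and 1650 with momelotinib, 1907 and 2347 with itacitinib, and 2264 and 2159 with pacritinib. MT-CYB rose by 0.41 (SE 0.14, adjusted p = 0.025), 0.51 (SE 0.14, adjusted p = 0.0177) and 0.56 (SE 0.14, adjusted p = 0.00353) with ruxolitinib, fedratinib and pacritinib.

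For complex IV, MT-CO1 was at 3916 and 4223 CPM with DMSO. It was at 5302 and 5327 with ruxolitinib, 4883 and 5194 with fedratinib, 4848 and 4479 with momelotinib, 5386 and 6241 with itacitinib, and 6166 and 5882 with pacritinib. All inhibitor libraries were above both DMSO libraries. MT-CO1 rose by 0.39 with ruxolitinib (SE 0.13, adjusted p = 0.0266) and by 0.57 with pacritinib (SE 0.13, adjusted p = 0.00217), and with fedratinib it was at 0.31 (SE 0.13, adjusted p = 0.157). With fedratinib MT-CO2 was the 1 of 3 complex IV mRNAs that was called.

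For complex V, both overlapping genes, MT-ATP8 and MT-ATP6, were called with ruxolitinib, fedratinib and pacritinib, at median log2 fold changes of 0.46, 0.53 and 0.65. MT-ATP8 was at 103 and 109 CPM with DMSO, 159 and 138 with ruxolitinib, 141 and 170 with fedratinib, and 164 and 171 with pacritinib. With momelotinib it was at 120 and 115 CPM and with itacitinib at 127 and 150. All of these libraries were above both DMSO libraries.

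Over all 13 mRNAs the median log2 fold change at 48 h was 0.41 with ruxolitinib, where 25.7% of all genes were called. It was 0.50 with fedratinib against 7.7% called, 0.21 with momelotinib against 1.94%, 0.60 with pacritinib against 18.3%, and 0.50 with itacitinib against 0.442%. The medians over all tested genes were between -0.0049 and 0.0065. The itacitinib median was above that of ruxolitinib, yet edgeR called 0 mRNAs there: unadjusted p was under 0.05 for 13 of 13, and after Benjamini-Hochberg adjustment over a comparison with few calls it was 0.0514 to 0.298. For momelotinib 1 of 13 mRNAs had an unadjusted p under 0.05, and the adjusted p was 0.27 to 0.695.

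Counts of called members at 48 h depended on which libraries entered the fit. Fitting the 48 h libraries alone called 9 members with momelotinib and 15 with itacitinib. DESeq2 called 0 and 0. Here and elsewhere, the share of all genes called in an alternative fit is not set beside its member count. Such counts thus do not show a shift particular to the members. With ruxolitinib the count of 13 was 2 and 3 without replicate 1 and replicate 2 of DMSO and 1 and 6 without replicate 1 and replicate 2 of ruxolitinib, and DESeq2 called 1. With fedratinib the count of 13 was 4 without either DMSO library, 7 and 5 without replicate 1 and replicate 2 of fedratinib, and 3 by DESeq2. With pacritinib it was 11 to 15.

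**Figure D4:**
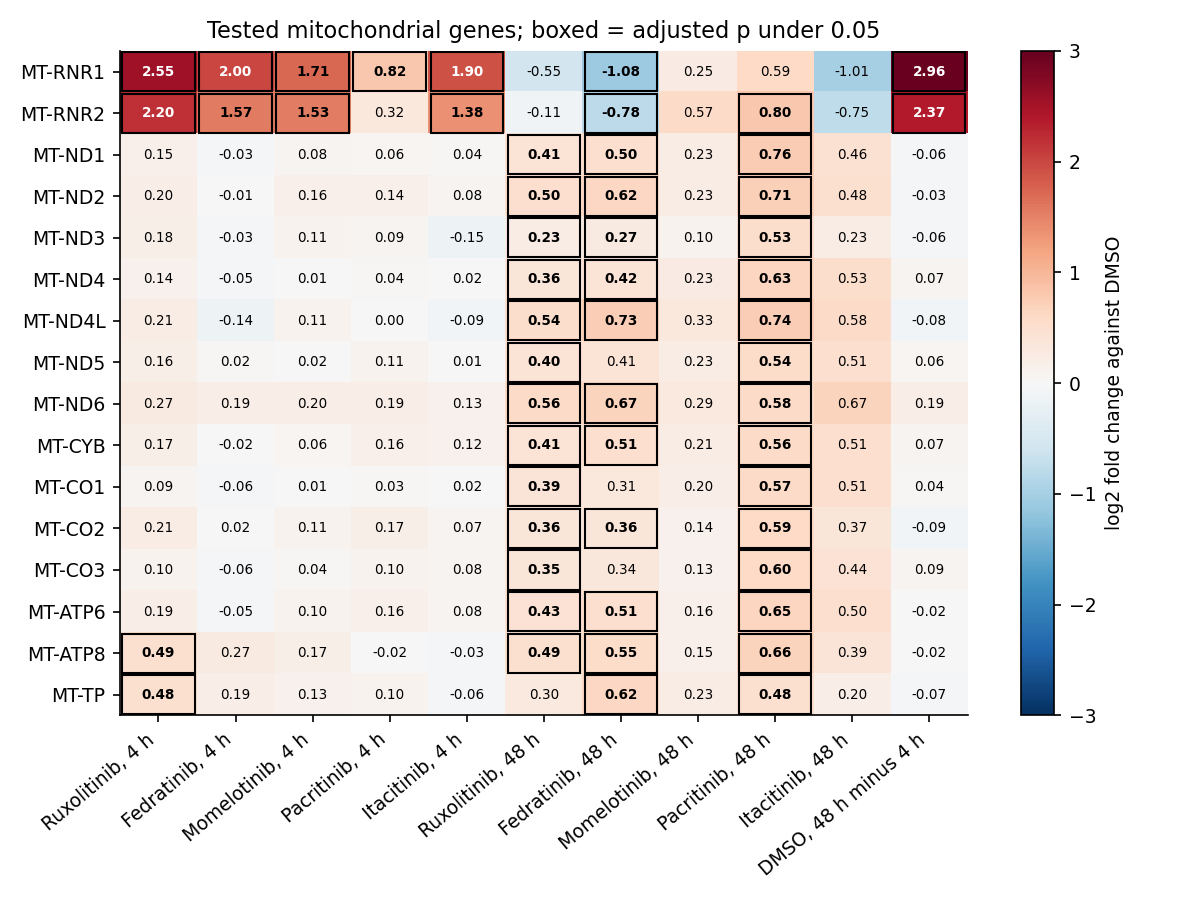
log2 fold change of the 16 tested mitochondrial genes for each inhibitor against DMSO at the same time, and for DMSO at 48 h minus 4 h, with the value printed in each cell and a box around values with an adjusted p under 0.05 (edgeR). The rRNAs are boxed at 4 h, with MT-RNR2 under pacritinib the exception, and at 48 h all 13 mRNAs are boxed with ruxolitinib and pacritinib and 10 of 13 with fedratinib.

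The rRNAs at 48 h were above DMSO, as the mRNAs were, with momelotinib and pacritinib but not with the other inhibitors. The summed rRNA level was 576 and 892 CPM with DMSO, 635 and 587 with ruxolitinib, 353 and 440 with fedratinib, 921 and 1092 with momelotinib, 331 and 485 with itacitinib, and 1288 and 1139 with pacritinib. Momelotinib and pacritinib libraries were above both DMSO libraries, fedratinib and itacitinib libraries below both, and ruxolitinib libraries between the DMSO libraries. MT-RNR1 fell with fedratinib, from 223 and 338 CPM with DMSO to 116 and 149, by 1.08 on the log2 scale (SE 0.27, adjusted p = 0.0113). MT-RNR2 fell by 0.78 (SE 0.23, adjusted p = 0.033). Both falls lost their call with DESeq2 (adjusted p = 0.103 and 0.17), without replicate 2 of DMSO (0.232 and 0.482) and without replicate 1 of fedratinib (0.169 and 0.284).

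With itacitinib MT-RNR1 was at 111 and 168 CPM and MT-RNR2 at 220 and 317, differences of -1.01 (SE 0.27, adjusted p = 0.0994) and -0.75 (SE 0.23, adjusted p = 0.165). Pacritinib gave 839 and 744 CPM of MT-RNR2 against 353 and 554 with DMSO, and MT-RNR2 rose by 0.80 (SE 0.23, adjusted p = 0.0123). That call was lost with DESeq2 (adjusted p = 0.104), without replicate 1 of DMSO (0.242) and without replicate 1 of pacritinib (0.108). MT-RNR1 with pacritinib was at 0.59 (SE 0.26, adjusted p = 0.124). With ruxolitinib MT-RNR1 was at -0.55 (SE 0.27, adjusted p = 0.137) and MT-RNR2 at -0.11 (SE 0.23, adjusted p = 0.775). MT-TP rose with fedratinib by 0.62 (SE 0.11, adjusted p = 0.000495), from 11.5 and 15.7 CPM to 20.1 and 21.7, and with pacritinib by 0.48 (SE 0.11, adjusted p = 0.00273).

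The ratio of summed mRNA to summed rRNA CPM differed between groups and times. With DMSO it went from 137 and 240 at 4 h to 36.1 and 24.2 at 48 h. With ruxolitinib it was 38.3 and 37.6 at 4 h and 44.9 and 46.4 at 48 h. With itacitinib it was 64.4 and 56.1 at 4 h and 83.0 and 65.4 at 48 h. Pacritinib spanned the most of the inhibitors, from 156 and 110 at 4 h to 25.8 and 27.7 at 48 h.

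**Figure D5:**
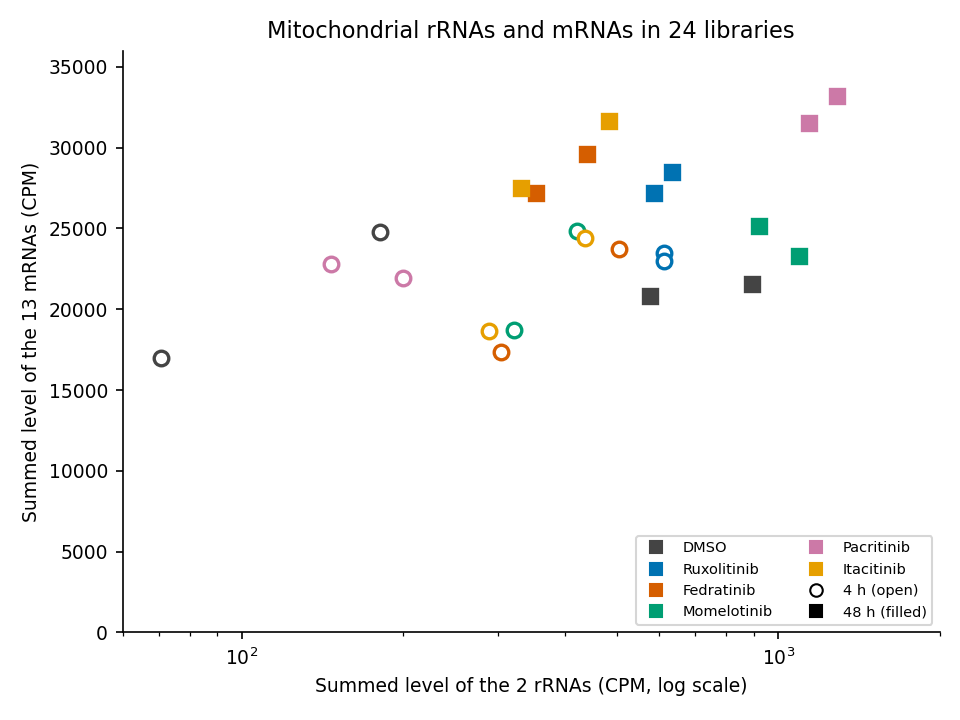
Summed mRNA level against summed rRNA level (log scale), both in CPM, for each of the 24 libraries, with open circles for 4 h and filled squares for 48 h. The DMSO libraries move right from 4 h to 48 h with their mRNA sums between 17000 and 24773 CPM, and the 48 h libraries of pacritinib are at the upper right.

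Direct comparison of the inhibitors at 48 h, over 10 pairs, gave 30 calls among the member tests, against 13.7% of all tests. The rRNAs made 14 of these. MT-RNR2 was higher with pacritinib than with itacitinib by 1.56 on the log2 scale (SE 0.23, adjusted p = 1.56e-05) (edgeR). It was also higher with pacritinib than with fedratinib, at -1.58 as fedratinib minus pacritinib (SE 0.23, adjusted p = 1.1e-05). MT-RNR1 was higher with momelotinib than with fedratinib, at -1.33 as fedratinib minus momelotinib (SE 0.27, adjusted p = 0.0016). Between pacritinib and momelotinib, and between fedratinib and itacitinib, 0 of 2 rRNAs were called.

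Of the mRNAs, 13 calls were made in these pairs, 8 of them between pacritinib and momelotinib. All 8 were higher with pacritinib, led by MT-ND1 at -0.53 as momelotinib minus pacritinib (SE 0.13, adjusted p = 0.00795). MT-ND3 was higher with pacritinib than with each of the other 4 inhibitors. MT-ND1 was higher with pacritinib than with ruxolitinib, at -0.36 as ruxolitinib minus pacritinib (SE 0.13, adjusted p = 0.0451). Between ruxolitinib and itacitinib no mRNA was called, and the differences ran from -0.17 to 0.10. A p that misses the threshold does not show that these inhibitors act alike. The count of 30 became 16 without replicate 2 of momelotinib, 98 when the 48 h libraries were fitted alone and 14 with DESeq2.

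The change of each inhibitor's effect between 4 h and 48 h was tested as an interaction. Over the 5 inhibitors it was called for 17 of 80 member tests, against 6.62% of all tests. In 7 of 10 rRNA tests the difference from DMSO was called lower at 48 h than at 4 h, with changes of -1.47 to -3.10 on the log2 scale. These tests share the DMSO libraries, whose mean rRNA sum went from 125.8 CPM at 4 h to 733.9 at 48 h. With ruxolitinib that mean was 612.9 and 610.8 CPM, with fedratinib 405.1 and 396.8, and with itacitinib 362.6 and 408.0. With momelotinib it was 371.4 and 1006 CPM, and with pacritinib 173.1 and 1214. In 10 of 65 mRNA tests the difference from DMSO was called higher at 48 h, 8 with pacritinib and 2 with fedratinib. Without replicate 1 of DMSO at 4 h 0 member tests were called higher and 9 lower, and with DESeq2 1 higher and 5 lower. MT-ND1 with pacritinib went from 0.06 at 4 h to 0.76 at 48 h, a change of 0.70 (SE 0.19, adjusted p = 0.00713). For ruxolitinib, momelotinib and itacitinib 0 mRNAs were called, with median changes of 0.25, 0.09 and 0.42. The count of 17 was 9 and 34 without replicate 1 and replicate 2 of DMSO at 4 h, 28 without replicate 1 of fedratinib at 4 h, 11 without replicate 2 of pacritinib at 4 h and 11 without replicate 1 of DMSO at 48 h.

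Within the mRNA sum the composition shifted little. MT-CO1 was the largest part, with 17.5% to 19.7% of the summed mRNA CPM, and MT-ATP8 the smallest with 0.447% to 0.68%. At 48 h the share of MT-ND3 was below both DMSO libraries (2.1% each) in 10 of 10 inhibitor libraries, at 1.69% to 2.08%. The share of MT-ND4L was above both DMSO libraries (1.29% and 1.2%) in 9 of 10. MT-CO2 was below both in 8 of 10, at 11.1% to 12.2% beside 12.2% and 12%, and MT-ND6 was above both in 8 of 10. These shares are descriptions over libraries that share 2 controls.

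RNAs without a poly(A) tail are a class that library preparations capture to different degrees. Of 4 tested, 3 rose at 4 h with each inhibitor other than fedratinib, where 2 did. At 48 h 3 rose with ruxolitinib and pacritinib, 2 with fedratinib and 0 with momelotinib and itacitinib. All genes were called at 8.47%, 1.59%, 6%, 30.6% and 0.778% at 4 h for ruxolitinib, fedratinib, momelotinib, pacritinib and itacitinib. At 48 h, in the same order, they were called at 25.7%, 7.7%, 1.94%, 18.3% and 0.442%. RN7SL1 and RN7SL2, both among the 4, are copies of the same RNA. RN7SL1, the signal recognition particle RNA, which has no poly(A) tail, averaged 19040 CPM with DMSO at 4 h and was higher with all 5 inhibitors. It rose by 0.35 on the log2 scale with ruxolitinib (adjusted p = 0.005), 0.32 with fedratinib (adjusted p = 0.0374), 0.57 with momelotinib (adjusted p = 1.65e-05), 0.74 with pacritinib (adjusted p = 2.85e-08) and 0.50 with itacitinib (adjusted p = 0.00133). By group mean, pacritinib had the highest RN7SL1 (31740 CPM) and the lowest mitochondrial rRNA sum (173.1 CPM) of the inhibitors at 4 h. DMSO at 4 h was lowest in both, at 19040 and 125.8 CPM. At 48 h pacritinib was highest in both, at 36400 and 1214 CPM, and fedratinib was at 36320 and 396.8. RPPH1, the RNA of RNase P, rose in the same 5 comparisons by 0.39 to 0.62. At 48 h RPPH1 was not called with fedratinib (0.18, adjusted p = 0.103), momelotinib (0.16, adjusted p = 0.25) or itacitinib (0.19, adjusted p = 0.248). Between 4 h and 48 h in DMSO RN7SL1 rose by 0.37 (adjusted p = 0.00357).

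At 48 h RN7SL1 rose with ruxolitinib (0.35, adjusted p = 0.00134), fedratinib (0.56, adjusted p = 3.08e-05) and pacritinib (0.56, adjusted p = 8.02e-06), and was at 0.29 with momelotinib (adjusted p = 0.0628) and 0.12 with itacitinib (adjusted p = 0.625). Over all 680 RN7SL copies, 63 of them tested, the summed level was 24100 to 24900 CPM with DMSO at 4 h and 27410 to 41120 with inhibitors. At 48 h it was 29980 to 32860 CPM with DMSO and 29980 to 47890 with inhibitors. Of 66 histone genes tested, whose mRNAs also lack a poly(A) tail, 14 rose with ruxolitinib and 9 rose and 7 fell with pacritinib at 4 h, against 8.47% and 30.6% of all genes called, and 0 were called with the other 3 inhibitors. At 48 h 20 rose and 2 fell with ruxolitinib (25.7% of all genes called), 26 rose with fedratinib (7.7%), 3 fell with momelotinib (1.94%), 2 rose and 14 fell with pacritinib (18.3%) and 0 were called with itacitinib (0.442%). Of 8 nuclear rRNA genes tested, 4 rose with ruxolitinib at 4 h, with a median of 0.45, and 0 were called with the other inhibitors at that time. At 48 h 1 of these 8 rose, with pacritinib. The part of library preparation in the rRNA and mRNA results was not tested.

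Of 12 nuclear copies of MT-RNR2, 4 passed the filter on low counts. With ruxolitinib at 4 h 2 of 4 rose, with fedratinib, momelotinib and pacritinib 1 of 4 each, and with itacitinib 0 of 4. All genes were called at 8.47%, 1.59%, 6%, 30.6% and 0.778% for ruxolitinib, fedratinib, momelotinib, pacritinib and itacitinib. The pacritinib call was MTRNR2L10, near the floor at a mean of 0.139 CPM against 0 with DMSO. MTRNR2L8 and MTRNR2L12 were not called there, at -0.04 and 0.30 on the log2 scale. MTRNR2L12 was at 1.03 and 0.652 CPM with DMSO at 4 h and at 4.90 and 3.95 with ruxolitinib, and rose by 2.43 on the log2 scale (SE 0.34, adjusted p = 4.63e-06). MTRNR2L8 rose by 2.14 in that comparison (SE 0.40, adjusted p = 0.000365). In DMSO both rose between 4 h and 48 h, by 2.24 and 2.12. MTRNR2L3 was not called in either comparison, at -0.57 (adjusted p = 0.721) with ruxolitinib at 4 h and 0.25 (adjusted p = 0.865) in DMSO over time. Whether these reads came from the nuclear copies or from MT-RNR2 was not tested.

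A list of 61 nuclear genes that transcribe, cut, modify and degrade mitochondrial RNA, copy its DNA or regulate these genes had 60 members tested. It gave 0 calls higher and 8 lower with ruxolitinib at 4 h, 0 and 2 with fedratinib, 0 and 5 with momelotinib, 0 and 0 with itacitinib and 5 and 11 with pacritinib. At 48 h it gave 2 higher and 15 lower with ruxolitinib, 3 and 0 with fedratinib, 2 and 3 with momelotinib, 0 and 0 with itacitinib and 8 and 2 with pacritinib. With ruxolitinib at 48 h that is 17 calls of 60, where 25.7% of all genes were called, and with pacritinib at 4 h 16 of 60, where 30.6% were, so both shares lie near the background. In the other comparisons the all-gene shares were 8.47%, 1.59%, 6% and 0.778% at 4 h and 7.7%, 1.94%, 18.3% and 0.442% at 48 h, for the inhibitors in the order ruxolitinib (4 h only), fedratinib, momelotinib, pacritinib (48 h only) and itacitinib. Medians over the 60 genes were between -0.0896 and 0.0074 on the log2 scale.

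POLRMT, the mitochondrial RNA polymerase, fell by 0.28 with ruxolitinib at 48 h (SE 0.05, adjusted p = 0.000106), from a mean of 135 to 111 CPM, while the mRNAs rose. PNPT1, a phosphorylase that degrades mitochondrial RNA, fell by 0.31 (SE 0.06, adjusted p = 7.78e-05) and the coactivator PPARGC1B fell by 0.64 (SE 0.07, adjusted p = 4.55e-08). MTERF2, of the mitochondrial transcription termination factor family, rose by 0.67 (SE 0.11, adjusted p = 8.15e-06). With pacritinib at 48 h MTERF2 rose by 0.55 (SE 0.11, adjusted p = 0.000336) and MRM1, which methylates the large-subunit rRNA, by 0.37 (SE 0.07, adjusted p = 0.000136).

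With fedratinib at 48 h QTRT1, which modifies tRNA, rose by 0.32 (SE 0.07, adjusted p = 0.00299). TFAM, which packages mitochondrial DNA and starts its transcription, fell by 0.23 with momelotinib at 48 h (SE 0.06, adjusted p = 0.0435). At 4 h with pacritinib FASTKD1 fell by 0.55 (SE 0.06, adjusted p = 7.05e-08) and FASTKD2 fell by 0.49 (SE 0.07, adjusted p = 2.81e-06), a pair of mitochondrial RNA-binding proteins. NRF1, a nuclear regulator of respiratory genes, fell by 0.49 (SE 0.07, adjusted p = 1.45e-06). TRMT10C, a subunit of the mitochondrial RNase P, fell by 0.32 with ruxolitinib at 4 h (SE 0.08, adjusted p = 0.00596).

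Nuclear-encoded subunits of the same complexes were counted in the same way, and their difference from the mitochondrial mRNAs was not tested. Of 72 tested, 45 rose and 0 fell with pacritinib at 4 h, where 30.6% of all genes were called, with a median of 0.18 on the log2 scale beside 0.10 for the 13 mitochondrial mRNAs. At 48 h the counts were 8 higher and 4 lower with ruxolitinib, 4 and 0 with fedratinib, 0 and 0 with momelotinib, 0 and 0 with itacitinib, and 8 and 1 with pacritinib. All genes were called at 25.7%, 7.7%, 1.94%, 0.442% and 18.3% for ruxolitinib, fedratinib, momelotinib, itacitinib and pacritinib. Medians at 48 h were between -0.0467 and 0.0715, beside 0.21 to 0.60 for the mitochondrial mRNAs.

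Of 9428 other genes compared, all averaging 3 or more on the log2 CPM scale, those whose log2 level over the 24 libraries was most like the summed rRNAs were ACACB (Pearson r = 0.78), PCYOX1 (0.772), RINL (0.764), WDFY2 (0.756) and USP28 (0.746). Those most like the summed mRNAs were MRPS25 (r = 0.799), ANKMY1 (0.796), TONSL (0.779), SPRYD3 (0.772) and C20orf203 (0.77). These correlations are descriptions over 24 libraries that share groups, scaling and depth.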

How the data were processed

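RNA-seq of 24 libraries was deposited by the authors as 1 table of raw counts per gene. Per the submitters' processing notes, bcl2fastq, STAR 2.5.1a, edgeR and GRCh38 were used. On the counting tool, the annotation and strand handling, nothing was given in the sources used here. Of 34343 rows, 130 repeated an ID with equal counts and were dropped, which left 34213 genes. The members and gene lists were chosen with earlier results of these data known.

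Counts were fitted with edgeR 4.0.16 (R 4.3.3; TMM scaling, filterByExpr, quasi-likelihood test, 12 group means over 24 libraries, 12 residual degrees of freedom), and p-values were adjusted by Benjamini-Hochberg over the 16076 genes tested, separately for each comparison. A gene was called at an adjusted p under 0.05. Two-sided tests compared each inhibitor with DMSO at each time, DMSO between times, the inhibitors in pairs, and the change of each effect over time. Named genes were all members, up to 4 called genes per comparison of the machinery list by largest fold change, and preset RNAs without a poly(A) tail. Likeness was Pearson's r with the class sums over 24 libraries. The test was checked on simulated counts for ruxolitinib at 4 h (15732 genes). It recovered 62% of 50 genes changed 1.25-fold, 84% at 1.5-fold, 98% at 2-fold and 100% at 4-fold, with 5 false calls among 177. The changed genes were drawn from all genes above a count threshold, so these rates need not hold for the members. Duplicates differed by more than sampling noise, so all 24 libraries were kept. Coordinates and sequences came from GENCODE 29 on GRCh38 and matched all 37 members. Alternatives were DESeq2 1.42.0, other scalings, other filters, a replicate block, the libraries of 1 time and leaving out each library.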

Additional observations from a re-analysis of the deposited data

Results flagged for a closer look

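The effect of an inhibitor against DMSO differed between 48 h and 4 h, by edgeR's interaction test with Benjamini-Hochberg adjustment, for 17 member tests. All share the DMSO libraries of both times, in which both rRNAs rose. For MT-RNR1 the change (48 h effect minus 4 h effect, log2) was -3.10 with ruxolitinib (adjusted p = 1.42e-06), -3.08 with fedratinib (adjusted p = 1.72e-05), -1.47 with momelotinib (adjusted p = 0.0425) and -2.905 with itacitinib (adjusted p = 0.000592). For MT-RNR2 it was -2.31 with ruxolitinib (adjusted p = 9e-06), -2.34 with fedratinib (adjusted p = 6.25e-05) and -2.13 with itacitinib (adjusted p = 0.00299).

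With fedratinib the change was 0.64 for MT-ND2 (adjusted p = 0.0266) and 0.87 for MT-ND4L (adjusted p = 0.0111). With pacritinib it was 0.70 for MT-ND1 (adjusted p = 0.00713), 0.57 for MT-ND2 (adjusted p = 0.0165), 0.45 for MT-ND3 (adjusted p = 0.00748), 0.60 for MT-ND4 (adjusted p = 0.0173) and 0.74 for MT-ND4L (adjusted p = 0.0104). It was 0.54 for MT-CO1 (adjusted p = 0.0392), 0.49 for MT-CO3 (adjusted p = 0.0449) and 0.68 for MT-ATP8 (adjusted p = 0.0239). Without replicate 1 of DMSO at 4 h 0 member tests were called higher and 9 lower, and with DESeq2 1 was higher and 5 lower.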

How the results depend on the processing

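Counts of called members ranged, leaving out each library in turn, from 2 to 10 for ruxolitinib at 4 h, 2 to 3 for fedratinib, 2 to 4 for momelotinib, 0 to 9 for pacritinib and 0 to 2 for itacitinib. At 48 h they ranged from 1 to 6, 4 to 7, 0 to 0, 11 to 15 and 0 to 0 in the same order. They ranged from 2 to 4 for DMSO over time, 9 to 34 for the changes over time, 10 to 25 for the pairs at 4 h and 16 to 28 for the pairs at 48 h. Where such a fit left 1 library in a group, that library is assumed to vary like the others. With DESeq2 the counts were 0 for pacritinib at 4 h, 1 for ruxolitinib and 3 for fedratinib at 48 h, 6 for the changes, 8 for the pairs at 4 h and 14 for those at 48 h. With no filter on low counts, members outside the 16 were tested too. The counts were then 14, 4, 6 and 9 for ruxolitinib, fedratinib, momelotinib and pacritinib at 4 h. They were 13 for momelotinib and 15 for itacitinib at 48 h, 62 for the changes, and 64 and 108 for the pairs at 4 h and 48 h. With the libraries of 1 time only they were 0 for pacritinib at 4 h, 9 for momelotinib and 15 for itacitinib at 48 h and 98 for the pairs at 48 h. With total count scaling they were 0 for pacritinib at 4 h and 1 for itacitinib at 48 h, and with RLE scaling 1 for itacitinib at 48 h. The cause was not tested. The share of all genes called in the same fits is not set beside these counts. The counts thus do not show shifts particular to the members. Over all tested genes, replicate numbers did not pair the libraries (0 of 66 pairs of groups with r over 0.1). That measure took all tested genes together, so it cannot exclude a shift shared by fewer genes. The replicate block gave 6 for itacitinib at 48 h in place of 0 and otherwise stayed within 1.5 times. Scaling without the MT- genes or on nuclear protein-coding genes stayed within 1.5 times for every count. All 13 mRNAs were above both DMSO libraries at 48 h with each inhibitor under the scalings run, a check chosen after seeing the data. Values for single members were counted only where the main or the alternative fit called them, so weak changes that could reverse were left out. Of 819 values for single members under alternatives 0 reversed, 572 kept their side of the threshold, 128 lost it and 119 gained it.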
